A study of Mus musculus with 4 samples.

Results

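The genes described here are 10 members of the hnRNP family, 10 of the 28585 genes in the deposited values. They are Hnrnpa0, Hnrnpa1, Hnrnpa2b1, Hnrnpa3, Hnrnpab, Hnrnpc, Hnrnpd, Hnrnpf, Hnrnpk and Hnrnpu, taken by symbol. The set was selected on the measured FPKM of Hnrnpa3, which were more than 3-fold higher in Dhps cko cells than in Dhps flox cells, so the genotype difference of Hnrnpa3 is given as a description with no test. The question put to the data was whether the rest of the family followed Hnrnpa3 or whether the difference belonged to a single gene model.

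Bulk RNA sequencing was performed on PMN-MDSCs, immunosuppressive neutrophil-like cells that the study gated as CD11b+ Ly6C lo/- Ly6G+, from mouse spleen at postnatal day 7. The data are 2 libraries labelled Dhps cko and 2 labelled Dhps flox. Both groups carry floxed alleles of Dhps, the enzyme that makes the hypusine residue of eIF5A, and the Dhps cko pups also carry a Cre recombinase expressed from the Lysm locus, which acts in myeloid cells in general and not in PMN-MDSCs alone. The labels do not say whether a replicate is 1 pup or a pool. Xist and Y-linked genes were both measured in all 4 libraries, so each held RNA of both sexes. The p-values measure the spread between these libraries.

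hnRNP proteins bind nascent pre-mRNA in the nucleus, most of them through RRM or KH domains. They package it, influence which exons and polyadenylation sites are used, and several shuttle to the cytoplasm, where they act on mRNA export, stability and translation. The A/B proteins (Hnrnpa0, Hnrnpa1, Hnrnpa2b1 and Hnrnpa3) share a layout of paired RRMs followed by a glycine-rich tail, and transcripts of some of them have given rise to many processed pseudogenes, intronless copies made from spliced mRNA. Short reads from such a gene can match its copies as well as the gene itself.

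Hnrnpa3 (ENSMUSG00000059005) is annotated on the plus strand of chr2:75659261-75669407 in GRCm38, with 7 transcripts. Its coding transcript of 1654 bases has 11 exons, and the sequences that follow cross its splice junctions. They are shown to set the joined exons of Hnrnpa3 beside the same bases of its copies. Whether a read can be told from a read of a copy also depends on its length and on bases outside the window. No reads were analysed. For exon 1 joined to exon 2 (chr2:75659360-75659389 and chr2:75661466-75661495, plus strand), the capitals in Hnrnpa3 mark the last base of exon 1 and the first base of exon 2, and capitals in a copy mark the bases that differ from Hnrnpa3. The copies are Gm11847 (chr4:12232875-12232934, plus strand) and Gm5641 (chr3:54481442-54481501, plus strand).
Hnrnpa3: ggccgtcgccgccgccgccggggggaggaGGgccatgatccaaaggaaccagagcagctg
Gm11847: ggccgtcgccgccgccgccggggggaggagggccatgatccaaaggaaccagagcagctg
Gm5641: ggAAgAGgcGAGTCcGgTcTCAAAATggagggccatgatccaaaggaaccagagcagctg

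Gm11847 held the joined exons of Hnrnpa3 base for base. Gm5641 differed at 18 of 60 bases, all before the joint, and its 60 bases were present exactly in 1 of the 7 annotated Hnrnpa3 transcripts, one that starts with another first exon. Further along, at exon 6 joined to exon 7 (chr2:75662727-75662756 and chr2:75662845-75662874), the copies were Gm5641 (chr3:54482109-54482168, plus strand) and Gm6793 (chr8:112014324-112014383, minus strand), marked in the same way.
Hnrnpa3: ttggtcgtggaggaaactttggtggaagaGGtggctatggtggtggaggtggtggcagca
Gm5641: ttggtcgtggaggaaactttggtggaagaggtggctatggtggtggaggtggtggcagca
Gm6793: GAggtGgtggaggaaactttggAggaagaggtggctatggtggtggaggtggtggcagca

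At this junction 9 of 25 copies were identical to Hnrnpa3 over the 60 bases and 22 of 25 differed at no more than 6 bases. The exon 1 to exon 2 joint had 1 such copy of 25. At each of the other 8 junctions examined between 21 and 24 of the 25 copies came within 6 bases, while the number that were identical ran from 3, at exon 3 joined to exon 4, to 15, at exon 2 joined to exon 3. The choice of copies and windows was made after the values had been seen, and the sequences are those of GENCODE M21 transcripts.

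Hnrnpa3 was measured at 13.95 and 14.61 FPKM in Dhps cko and at 4.24 and 3.52 FPKM in Dhps flox. FPKM is a level, the fragments of a gene per kilobase of transcript and scaled to the mapped fragments of the library. The values of the genotypes did not overlap, and within each genotype the libraries lay close together. The means were 14.28 ± 0.47 FPKM in Dhps cko and 3.88 ± 0.51 FPKM in Dhps flox (SD, n = 2 each), a ratio of 3.68 and a log2 fold change of 1.86. At the approximate depths of the libraries, and if the 1654-base transcript is taken as its length, these levels stand for about 738 and 752 fragments in Dhps cko and about 216 and 174 in Dhps flox. With the longest annotated transcript, of 5150 bases, they would be about 2299 and 2340 against 673 and 542.

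By this ratio Hnrnpa3 was 13th among the 10629 genes whose mean level reached 1 FPKM. In that population 24 genes (0.226%) had a ratio over 3 and 22 genes (0.207%) a ratio under its inverse. The genes nearest the threshold were Ear1 and Fabp1, both at a ratio of 3.07, on the inside, and Igkj4 at 2.99 and Ighv1-26 at 2.89 on the outside. The next highest ratio among the members was 1.07, in Hnrnpa0 and Hnrnpa2b1, so no other member was near the threshold.

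None of the other 9 members had an adjusted p under 0.05 (limma, Benjamini-Hochberg over all genes tested), where 0.00557% of 17948 genes did. None had an unadjusted p under 0.05, where 4.72% of all genes had one and were higher in Dhps cko and 2.28% had one and were lower. Their log2 fold changes ran from -0.04 to 0.09 with standard errors of 0.06 to 0.08, and their median was 0.06 beside 0.01 for all genes tested. In 2 of the 9, Hnrnpf and Hnrnpa2b1, both Dhps cko libraries were above both Dhps flox libraries, and in 0 of 9 were both below. Of all genes, 20.0% had the first order and 16.0% the second. The count of 2 fell to 0 when FPKM were rescaled to equal sums and after quantile normalization, where 16.2% and 17.4% of all genes had that order. It rose to 3 when FPKM were divided by median-of-ratios size factors, where 19.2% of all genes had it. When a library was left out it was 3 to 7, where 32.3% to 37.1% of all genes met the eased condition. In simulated libraries, 68.2% of the genes given a log2 change of 1 and 95.2% of those given a log2 change of 2 were called. There 200 genes were changed and all genes of a level were given the same spread, which makes calls easier. In the real libraries only 1 of 17948 genes was called. The simulated shares are thus likely too high for these data, and shifts of a member could pass unseen.

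**Figure D1:**
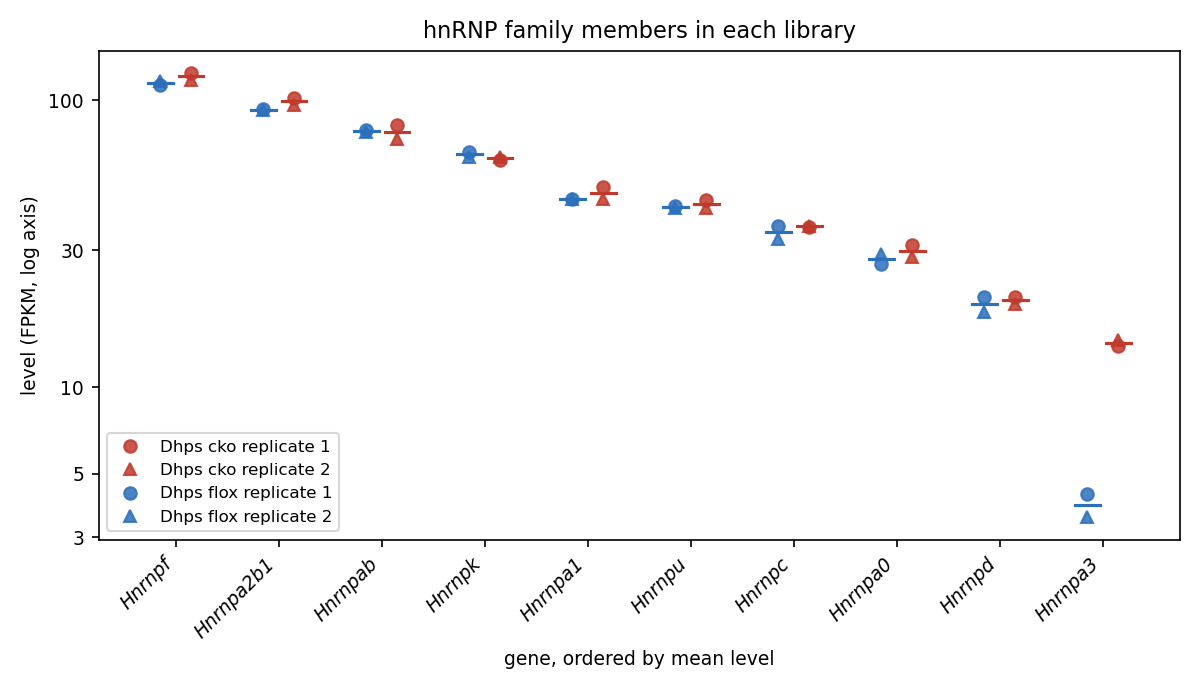
Level of each of the 10 hnRNP genes in each library, in FPKM on a log axis. Each point is 1 library (circle, replicate 1; triangle, replicate 2), red for Dhps cko and blue for Dhps flox, and each bar is the mean of 2 libraries. Hnrnpa3 lies at 13.95 and 14.61 FPKM in Dhps cko against 4.24 and 3.52 in Dhps flox, while the points of the other 9 genes lie close together.

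The order of the members by level ran from Hnrnpf, at a mean of 118.2 FPKM over the 4 libraries, through Hnrnpa2b1, Hnrnpab, Hnrnpk, Hnrnpa1, Hnrnpu, Hnrnpc, Hnrnpa0 and Hnrnpd to Hnrnpa3 at 9.08 FPKM. Each of the 9 pairs of neighbours in this order had library values that did not overlap. Hnrnpa3 was the lowest member in both genotypes. FPKM are per length, which allows genes to be ordered, but they depend on how shared reads were assigned.

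Among the A/B genes closest in kind to Hnrnpa3, Hnrnpa2b1, which also binds sorting motifs in RNA, stood at 102.23 and 96.22 FPKM in Dhps cko and 93.10 and 92.65 FPKM in Dhps flox. Its log2 fold change was 0.09 ± 0.06 (SE; limma adjusted p = 0.79). Hnrnpa1, a splicing repressor that shuttles between nucleus and cytoplasm, had 49.70 and 45.35 FPKM against 45.45 and 45.38 FPKM. In Hnrnpa1 the second Dhps cko library was the lowest of the 4, and the log2 fold change was 0.06 ± 0.07 (adjusted p = 0.88). Hnrnpa0, an intronless gene whose protein binds AU-rich elements, had 31.33 and 28.40 FPKM against 26.80 and 29.19 FPKM, with overlapping genotypes (0.09 ± 0.08, adjusted p = 0.84).

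The related CArG-binding and AU-rich element-binding proteins are encoded by Hnrnpab and Hnrnpd. Hnrnpab had 82.03 and 73.47 FPKM in Dhps cko, which lay on either side of its 78.58 and 77.79 FPKM in Dhps flox. Hnrnpd, known for its part in the decay of mRNAs with AU-rich elements, had 20.65 and 19.52 FPKM against 20.58 and 18.32 FPKM. Both overlapped between genotypes, with log2 fold changes of -0.01 ± 0.07 (adjusted p = 0.99) and 0.05 ± 0.08 (adjusted p = 0.94).

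The remaining 4 members bind RNA in other ways. Hnrnpf, which binds G-rich runs near exons through quasi-RRMs, had 124.56 and 117.64 FPKM in Dhps cko and 113.41 and 117.02 FPKM in Dhps flox. The nearest libraries of the genotypes were thus less than 1 FPKM apart, and the log2 fold change was 0.07 ± 0.06 (adjusted p = 0.83). Hnrnpk, a KH-domain protein that binds C-rich RNA and DNA, had 62.17 and 63.71 FPKM against 66.27 and 63.32 FPKM (-0.04 ± 0.06, adjusted p = 0.91). Hnrnpc, a core protein of hnRNP particles that binds runs of U, had 36.17 and 36.53 FPKM against 36.37 and 32.95 FPKM (0.07 ± 0.07, adjusted p = 0.87). Hnrnpu, a scaffold-attachment factor, had 44.95 and 42.27 FPKM against 42.73 and 42.29 FPKM (0.04 ± 0.06, adjusted p = 0.94). Hnrnpk, Hnrnpc and Hnrnpu all overlapped between genotypes.

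The wider family was read from 21 other hnRNP genes. Of these, 0 had an adjusted p under 0.05 in limma, 0 were higher and 2 lower at an unadjusted p under 0.05, and the median log2 fold change was -0.01. Both Dhps cko libraries were above both Dhps flox libraries in 1 of 21 genes and below in 5, where 20.0% and 16.0% of all genes had these orders, and 2.28% of all genes were lower at an unadjusted p under 0.05. The 2 lower genes were Ptbp2, a polypyrimidine tract-binding splicing repressor, and Grsf1, which binds G-rich RNA and acts in mitochondrial RNA granules. Ptbp2 had 7.19 and 6.56 FPKM against 8.74 and 8.20 FPKM (-0.30 ± 0.09), and Grsf1 had 13.01 and 13.13 FPKM against 15.24 and 14.95 FPKM (-0.21 ± 0.06). Both had an adjusted p of 0.63 in limma. Among those that reached 1 FPKM, Syncrip was the next lowest at -0.17 ± 0.08, and among the highest were Hnrnph3 (0.11 ± 0.14) and Raly (0.06 ± 0.06).

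SR proteins often act on exons in the opposite sense to hnRNP A/B proteins. Of 13 listed SR genes 12 passed the minimum level for the test, the excluded gene being Srsf12 at 0.00 to 0.03 FPKM. The median log2 fold change of the 12 was 0.01. There were 0 adjusted p under 0.05 in limma and 1 gene, Srsf9, higher at an unadjusted p under 0.05, as were 4.72% of all genes. Srsf9 had 15.16 and 15.27 FPKM in Dhps cko and 12.35 and 13.50 FPKM in Dhps flox (0.24 ± 0.07, adjusted p = 0.63). The lowest SR gene was Srsf10, at -0.14 ± 0.09.

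The genes that carry hnRNP proteins into the nucleus or methylate their arginines were 7 in number, and 0 of 7 had an unadjusted p under 0.05. Tnpo1, the transportin that imports hnRNP A proteins, had 16.37 and 14.30 FPKM in Dhps cko and 16.72 and 15.71 FPKM in Dhps flox. Prmt1, the main arginine methyltransferase of these proteins, had 5.71 and 5.24 FPKM against 5.08 and 6.02 FPKM. The 14 genes of nonsense-mediated decay, the route by which several splicing factors limit their own mRNA, also gave 0 genes at an unadjusted p under 0.05. With 4.72% of all genes higher and 2.28% lower at that threshold, lists of this size would hold few calls or none. Casc3, of the exon junction complex, was the highest at 24.11 and 24.09 FPKM against 20.71 and 22.38 FPKM (0.16 ± 0.07, adjusted p = 0.74), and Magoh was the lowest at -0.19 ± 0.11. In all of these lists the median lay between -0.02 and 0.06.

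**Figure D2:**
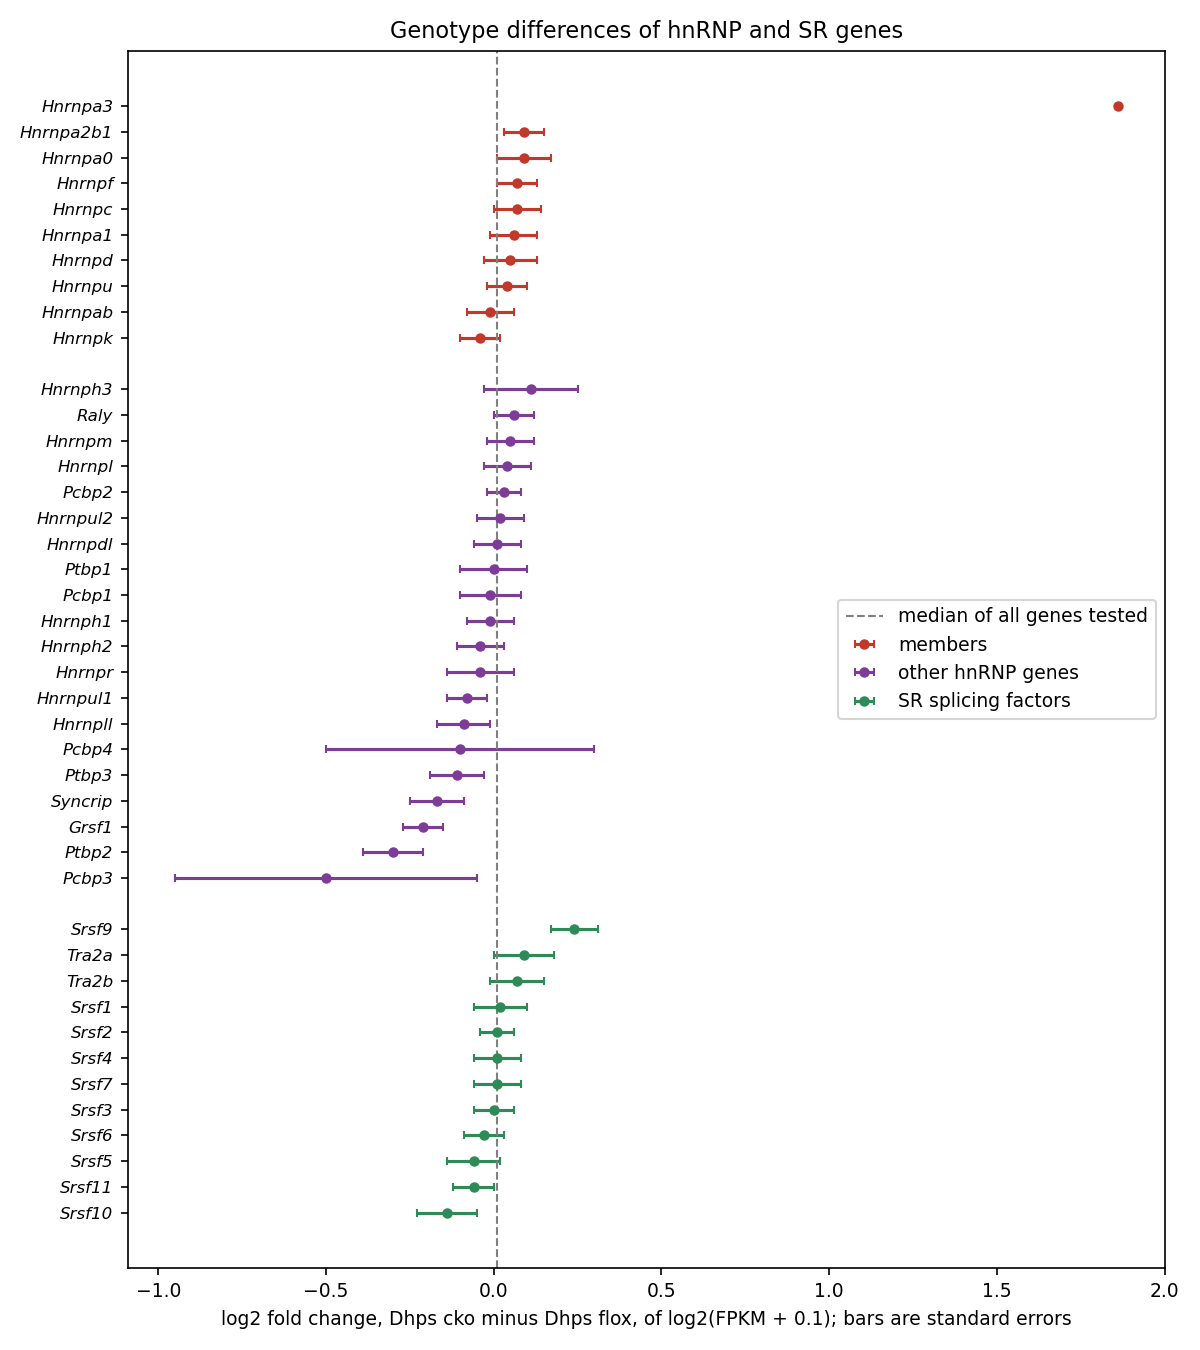
Log2 fold change, Dhps cko minus Dhps flox, of log2(FPKM + 0.1) for the 10 members (red), the other hnRNP genes but 1 (purple) and 12 SR genes (green), with standard errors from limma as bars. Hnrnpa3 is shown without a bar because it was chosen for its difference. It stands at 1.86, and the other 9 members lie between -0.04 and 0.09, beside the dashed median of all genes tested at 0.01.

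At the Hnrnpa3 locus itself, only 1 other gene model had exons that overlapped those of Hnrnpa3. This was Gm24574, a microRNA model on the same strand with 57 shared exon bases, listed at 0 in both Dhps cko libraries and at 0.07 and 0.06 FPKM in Dhps flox. When each level was weighted by the length of its transcript and added up for the locus, the Dhps cko mean was 368% of the Dhps flox mean. Gm24574 has 74 bases and is near 0, so this sum is almost wholly Hnrnpa3 and could only return its ratio. The nearest protein-coding gene after Hnrnpa3, Nfe2l2, lies 6106 bases away and encodes a transcription factor of the antioxidant response. It had 48.47 and 51.50 FPKM in Dhps cko and 46.80 and 45.38 FPKM in Dhps flox, a log2 fold change of 0.12. The nearest one before it, Mtx2, 780830 bases away, had 2.02 and 1.91 FPKM against 2.28 and 1.86 FPKM.

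Most of the Hnrnpa3 mRNA sequence was not its own. Every stretch of 50 bases (50-mer) of the coding transcript was looked up in all other GENCODE M21 gene models, on either strand, and 91.0% of 1605 were found in at least 1. Within the coding sequence the share was 97.7% (1063 of 1088), with a median of 15 and a maximum of 23 other models per 50-mer. After the coding sequence it was 82.7%, with a median of 2 other models. Over all 7 transcripts of the gene, the longest of 5150 bases, the share was 27.1% (1498 of 5529), and 7.68% of the protein-coding genes that reached a mean of 1 FPKM shared at least as much.

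**Figure D3:**
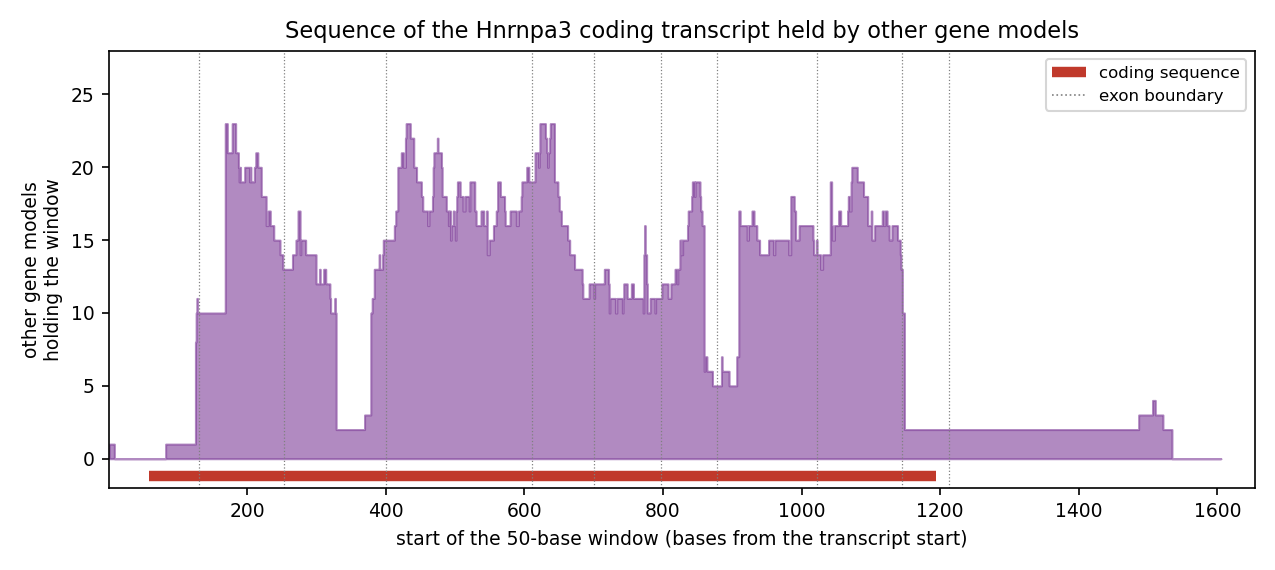
Number of other gene models that hold each 50-base window of the 1654-base Hnrnpa3 coding transcript, against the start of the window in bases from the transcript start. The red bar marks the coding sequence and dotted lines mark exon boundaries. Up to 23 other models hold a window in the coding sequence, and most windows after it are held by 2.

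The models that shared at least 100 of these 50-mers with Hnrnpa3 numbered 25. All 25 have a single exon, 24 are annotated as pseudogenes and 1, Gm6793, as protein-coding, and they lie on 14 chromosomes. Their levels ranged widely, with 15 at a mean of at least 1 FPKM and 10 below it. In 12 of them the mean over the libraries exceeded the Dhps flox mean of Hnrnpa3, and in 8 it exceeded the Dhps cko mean. The authors' handling of reads that match several places is not given in the sources used here, so the levels of Hnrnpa3 and of these models are uncertain as measures of each gene alone.

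Gm5641, every 50-mer of which also occurs in Hnrnpa3, had 76.91 and 66.70 FPKM in Dhps cko and 66.71 and 66.78 FPKM in Dhps flox. Gm11847 had 74.51 and 68.43 FPKM against 64.15 and 61.73 FPKM, Gm5940 on the X chromosome 39.47 and 34.51 FPKM against 34.98 and 33.89 FPKM, and Gm6793 22.41 and 18.63 FPKM against 20.40 and 19.44 FPKM. Of these 4 only Gm11847 did not overlap between genotypes, with a log2 fold change of 0.18 ± 0.07 (limma unadjusted p = 0.039, adjusted p = 0.68). Hnrnpa3 was thus listed well below 2 processed copies of itself in every library.

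Among the 15 models with a mean of at least 1 FPKM, the ratio of Dhps cko to Dhps flox ran from 0.88 to 1.16, none near that of Hnrnpa3, and the median log2 fold change was 0.10. Among the 10 below 1 FPKM ratios rest on few fragments, and Gm7498 had a ratio of 4.25 from 0.21 and 0.13 FPKM in Dhps cko and 0.08 and 0.00 FPKM in Dhps flox. Of the 22 that were tested, 0 had an adjusted p under 0.05 in limma and 1, Gm11847, was higher at an unadjusted p under 0.05, as were 4.72% of all genes. In 14 of the 15 the highest value was in replicate 1 of Dhps cko, whereas Hnrnpa3 was highest in replicate 2.

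**Figure D4:**
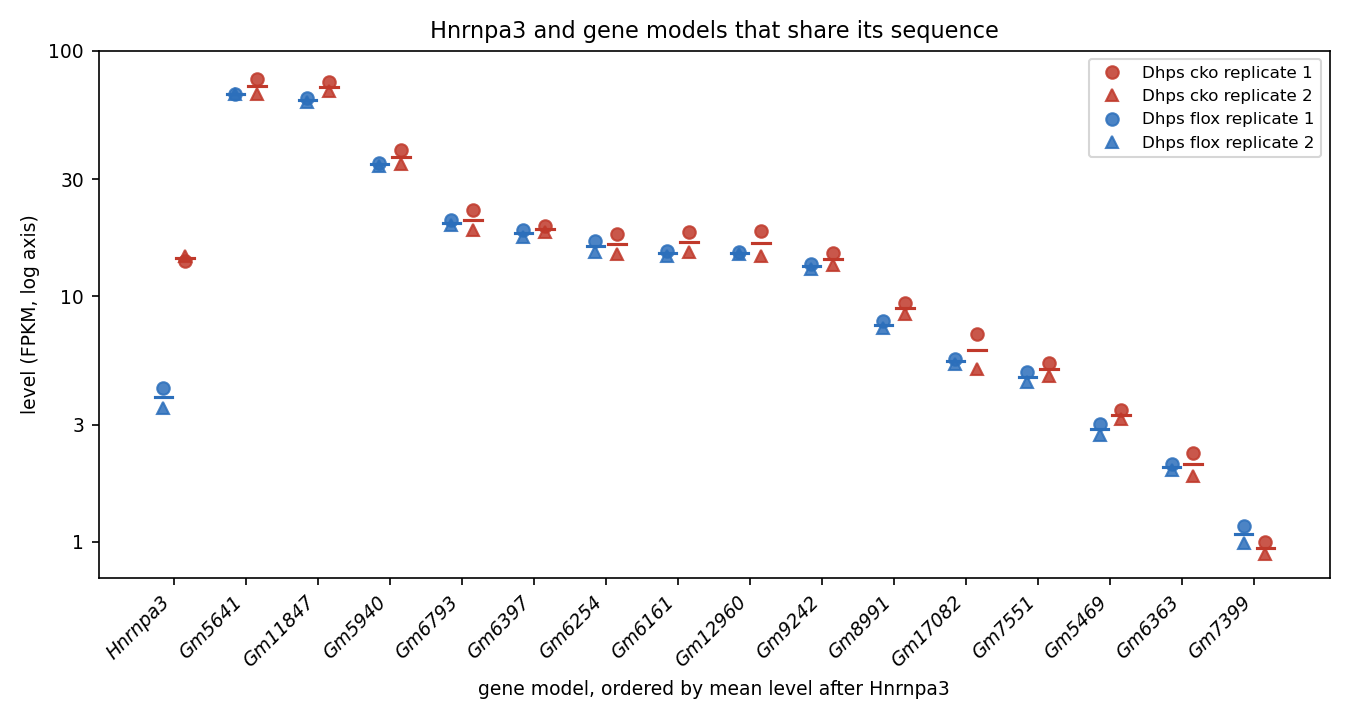
Levels in FPKM, on a log axis, of Hnrnpa3 and of the 15 sequence-sharing models with a mean of at least 1 FPKM. Each point is 1 library (circle, replicate 1; triangle, replicate 2), red for Dhps cko and blue for Dhps flox, and bars are means of 2 libraries. Hnrnpa3 is the only model in the plot whose genotypes are far apart, and the ratios of the 15 others lie between 0.88 and 1.16.

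Summed with these 25 models, Hnrnpa3 gave 347.8 and 306.0 FPKM in the Dhps cko libraries and 296.9 and 286.0 FPKM in the Dhps flox libraries. The genotypes did not overlap, but the gap between them was smaller than that between the Dhps cko replicates. The Dhps cko mean of 326.9 ± 30 FPKM was 112% of the Dhps flox mean of 291.5 ± 7.7 FPKM (SD, n = 2 each). Hnrnpa3 alone was at 368%, but it was a small part of the sums and could move their ratio only a little. Without replicate 1 of Dhps cko the log2 ratio of the sums fell from 0.17 to 0.07. The sums of the 25 models without Hnrnpa3 were 333.8 and 291.4 FPKM against 292.7 and 282.5 FPKM and overlapped.

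Hnrnpa3 made up 4.011% and 4.775% of the sum in Dhps cko and 1.428% and 1.231% in Dhps flox. The means of the sums differed by 35.4 FPKM, of which Hnrnpa3 gave 10.4 FPKM. With each model weighted by its longest transcript, 5150 bases for Hnrnpa3, the Dhps cko sum was 123% of the Dhps flox sum, and with Hnrnpa3 weighted by its 1654-base transcript it was 113%. A sum can count 1 fragment at several models, and FPKM do not show which reads were placed where, so whether reads were divided differently between Hnrnpa3 and its copies in the genotypes was not tested.

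**Figure D5:**
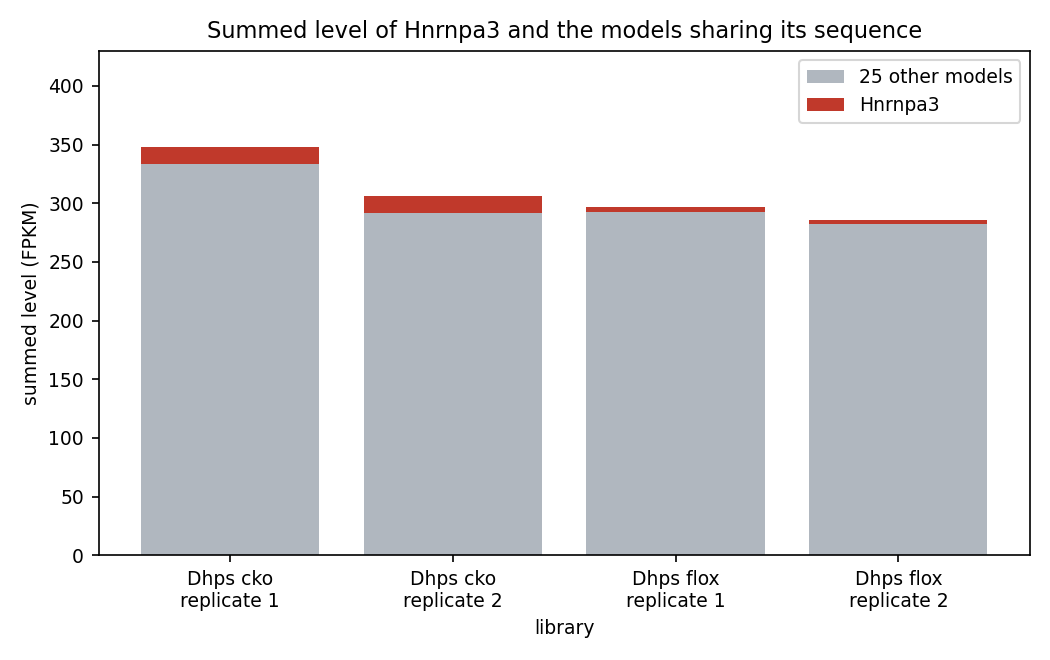
Summed level in FPKM of Hnrnpa3 (red) and of the 25 models that share its sequence (grey) in each library, on an axis that starts at 0. The sums are 347.8 and 306.0 FPKM in Dhps cko and 296.9 and 286.0 FPKM in Dhps flox, and Hnrnpa3 makes up between 1.231% and 4.775% of them.

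Among the other members, Hnrnpf had the largest share over all its transcripts, 61.9% of 50-mers, with 10 models sharing at least 100. Of these, 4933440N22Rik and Gm43863 lie on the opposite strand within the Hnrnpf locus and are not copies elsewhere. The level of Hnrnpf was more than that of the 10 models together, with 59.03% and 56.58% of the sum in Dhps cko and 57.18% and 59.36% in Dhps flox. The sums of Hnrnpf and these models were 211.0 and 207.9 FPKM against 198.3 and 197.2 FPKM. These did not overlap either, at 106% of the Dhps flox mean.

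Hnrnpa1 shared 28.2% of its 50-mers, close to the 27.1% of Hnrnpa3, also with 10 models, yet its copies were mostly near 0, the highest being Gm10052 at 14.03 and 14.88 FPKM against 13.18 and 15.04 FPKM. Hnrnpk shared 17.8%, mainly with Gm7964 at 29.19 and 27.07 FPKM against 32.77 and 28.29 FPKM. The 23.8% of Hnrnpab and the 6.04% of Hnrnpu came mainly from overlapping genes on the opposite strand, Phykpl and Cox20, and not from copies. Hnrnpc shared 8.28%, Hnrnpd 5.06%, Hnrnpa2b1 0.591% and Hnrnpa0 0% of their 50-mers.

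Protein-coding genes that reached a mean of 1 FPKM were also split by shared sequence, and large ratios were not limited to the genotype comparison. Of the 777 such genes with at least 25% of their 50-mers in other models, a limit set after the data were seen, 17 (2.19%) had a genotype ratio over 3 or under its inverse, against 18 of 8241 (0.218%) among genes with less. The 17 include Hnrnpa3, which was chosen for its ratio. Its share of 27.1% lies just above the limit. Some of the 17 reached a mean of 1 FPKM through Dhps cko alone, and the classes were not matched for level. Between the Dhps cko replicates 13 of the 777 and 3 of the 8241 differed by more than 3-fold, and between the Dhps flox replicates 17 and 28 did. These replicate counts set single libraries side by side, while the genotype ratio is between means of 2 libraries. Hnrnpa3 was not among the genes that differed between replicates, with 14.61 against 13.95 FPKM and 4.24 against 3.52 FPKM in its replicate pairs. The part of shared sequence in its genotype ratio was not tested.

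Across the 4 libraries the genes whose profile lay nearest to that of Hnrnpa3 (smallest Euclidean distance between centred log2 values) were Defa17, Ighv1-26, Alpi, Fabp1 and Apoa1, at distances of 0.43 to 0.65. Alpi had 7.39 and 5.21 FPKM in Dhps cko and 2.26 and 2.17 FPKM in Dhps flox. All 5 were higher in both Dhps cko libraries, as the rule of likeness requires. Defa17 shares 92.0% of its 50-mers with other models and stands for about 4 to 30 fragments per library, so its level is uncertain too. Defa17, a Paneth cell defensin, Alpi, intestinal alkaline phosphatase, Fabp1, a fatty acid-binding protein of liver and intestine, and Apoa1, an apolipoprotein of the same organs, are known from epithelium or liver rather than from neutrophils. Genes known from stomach were also among those with a ratio over 3, such as Tff2 at 14.94 and 11.38 FPKM in Dhps cko against 0.00 and 4.33 FPKM in Dhps flox, Gkn3 at 7.98 and 5.21 against 0.00 and 3.17 FPKM, and Muc6 at 1.86 and 1.44 against 0.09 and 0.65 FPKM. These genes were picked for a high ratio or a profile like that of Hnrnpa3, which fixes their direction, no list of markers of these tissues was scored, and the part of such tissue in the Hnrnpa3 result was not tested.

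Dhps had 2.38 and 2.59 FPKM in the Dhps cko libraries and 3.57 and 3.11 FPKM in the Dhps flox libraries (log2 fold change -0.41 ± 0.13, limma unadjusted p = 0.026, adjusted p = 0.63), which did not overlap. The 12 neutrophil markers summed to 79163.0 and 81659.5 FPKM in Dhps cko and 78919.1 and 74475.3 FPKM in Dhps flox. The sums did not overlap, but Ngp and S100a9 made up most of them. Ngp did not overlap between genotypes, while S100a9 did (26386.54 and 28032.62 against 26409.33 and 24503.84 FPKM). Of the 12 markers 5 were higher in both Dhps cko libraries, as were 20.0% of all genes. Markers of other cells were measured too, and the sums of some lists did not overlap between genotypes. The 8 B cell markers summed to 65.7 and 68.8 FPKM in Dhps cko and 42.3 and 51.3 FPKM in Dhps flox, the 8 T cell markers to 18.4 and 14.6 against 11.9 and 7.68 FPKM, and the 10 macrophage markers to 184.6 and 192.6 against 153.6 and 144.6 FPKM. In these 3 lists 0 markers had an adjusted p under 0.05 in limma. Higher at an unadjusted p under 0.05 were 5 B cell, 2 T cell and 4 macrophage markers, as were 4.72% of all genes. Both Dhps cko libraries were above both Dhps flox libraries in 6, 4 and 6 of them, beside 20.0% of all genes. The sums of the 8 erythroid markers overlapped, at 605.6 to 912.1 FPKM, and no marker of any list was at 0 in all libraries. Of 5 sex-linked genes the 4 on the Y chromosome were lower in Dhps cko, at ratios of 0.37 to 0.47. Xist was higher (27.54 and 20.27 against 16.25 and 17.17 FPKM), and both kinds were measured in every library. The mix of sexes thus differed between the groups and cannot be told apart from genotype. The part of these differences in the Hnrnpa3 result was not tested, and in bulk samples fewer cells of a type and less RNA per cell cannot be told apart. Approximate depth was 29900000 to 32000000 fragments per library.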

How the data were processed

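Reads were trimmed by the authors (Cutadapt, v1.9), mapped with HISAT2 (v2.2.1), per the labels to mm10, and turned into the deposited FPKM per gene by StringTie (v2.1.6) with ballgown. Annotation, strand and the treatment of reads matching several places are not given in the sources used here. Shared reads make the levels of genes with copies uncertain.

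log2(FPKM + 0.1) of genes averaging at least 0.1 FPKM was compared between 2 Dhps cko and 2 Dhps flox libraries with limma 3.58.1 in R 4.3.3 (trended eBayes, Benjamini-Hochberg threshold 0.05), without a replicate block, and tested on simulated data. Fold changes on this scale are understated for low genes. An exact permutation test of 2 against 2 libraries cannot go below p = 0.33. Positions, transcripts and 50-mers came from GENCODE M21 (28511 identifiers matched, 74 not). Python 3.11.15 with numpy 2.4.6, pandas 2.3.3 and matplotlib 3.10.9 was used otherwise. Depth was inferred from steps between low FPKM values. Only 38.9% to 41.4% of these lay within 0.15 of a whole read, not far above what evenly spread values would give. The depths and the fragment numbers drawn from them are therefore rough, and no count test was run.

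Members and gene lists were chosen with earlier results of these data known. Named genes are the members, models overlapping Hnrnpa3, its neighbours, up to 3 genes at each end of every other list (mean level 1 FPKM or more), 5 nearest profiles and Dhps. The values of 1 gene that this rule names are not reported here. The sequence-sharing models, Prmt1, Tff2, Gkn3, Muc6, Gm10052, Gm7964, Phykpl, Cox20, 4933440N22Rik, Gm43863, Srsf12, Ngp, S100a9, Xist and the genes beside the fold threshold were named after their values were seen.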

Additional observations from a re-analysis of the deposited data

How the results depend on the processing

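The log2 fold change of Hnrnpa3 was 1.65 with a pseudocount of 1 and 1.73 to 1.99 when each library was left out, and stayed within 1 SD of 1.86 under the other alternatives. The count of the other 9 members with an adjusted p under 0.05 was 0 under every alternative run, with 0 of 9 at an unadjusted p under 0.05 in each of them. Over all genes these alternatives called at most 4, and 7 of 14 called 0, so this count says nothing about stability. In fits without a library the lone library of its genotype is assumed to vary like the other genotype. The count of members whose Dhps cko libraries were both higher was 0 after FPKM were rescaled to equal sums (TPM) and 0 after quantile normalization, against 2 as deposited. With median-of-ratios size factors it was 3, where 19.2% of all genes had that order. When a library was left out, which makes the condition easier to meet, it was 3 to 7. It was 7 without replicate 2 of Dhps cko, where 36.0% of all genes met it, and 4 without replicate 1 of Dhps flox, where 36.7% did. The median of the other members was 0.01 to 0.09 when a library was left out. That of the other hnRNP genes was -0.04 with TPM, -0.04 with quantile normalization and -0.06 to 0.02 when a library was left out. The median of the SR genes was -0.03 with TPM and -0.02 to 0.02 when a library was left out. TPM moved the median of all genes from 0.01 to -0.02. Of 480 recomputed values of 40 named genes, 21 changed sign, in 17 genes whose log2 fold change was at most 0.11 in size, and 0 passed the adjusted threshold. Merged exon lengths left the log2 ratio at the Hnrnpa3 locus at 1.88, which a change of length could hardly move, since almost all of that sum is Hnrnpa3.

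The replicate numbers are not known to pair the libraries. The replicate 1 minus replicate 2 differences of the genotypes had a correlation of -0.06 across 10629 genes. With the replicate number as a block, Hnrnpa3 stood at 1.86, 0 of the 9 other members had an adjusted p under 0.05, and the count over all genes went from 1 to 0.

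Chosen after seeing the data, sums over models sharing at least 1 or at least 500 50-mers gave log2 ratios of 0.16 and 0.17, a sum weighted by the longest transcripts 0.29, and sums without each library 0.07 to 0.26. With 100-base stretches, 25.6% of the Hnrnpa3 gene was shared and 18 models shared at least 100. Depth is approximate, n is 2 per genotype, and reads were not analysed here.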
